A study of Homo sapiens with 2 samples.

Results

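The guanylate-binding protein genes GBP1, GBP2, GBP3, GBP4, GBP5, GBP6 and GBP7 lie side by side on human chromosome 1, and chromatin accessibility over them was compared between G401 cells given DMSO and G401 cells given MAK683. A promoter peak of a gene was a peak within 3 kb of its transcription start site (TSS, 1 per gene, from GENCODE). All other peaks of the interval chr1:89472362-89853719 (build hg19, 381 kb), which runs from the end of GBP3 to the end of GBP6, were included as well. These are 7 of 20163 protein-coding genes. They took in 1 of 114060 peaks of the DMSO library and 24 of 161184 peaks of the MAK683 library. No promoter peak lay outside the interval.

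G401 is an established cell line grown from a kidney rhabdoid tumor. Such tumors lack SMARCB1, a subunit of the SWI/SNF chromatin remodeler. MAK683 binds EED and inhibits PRC2, the complex that methylates lysine 27 of histone H3. Cells were given DMSO or 3 μM MAK683 for 3 days and profiled by ATAC-seq, which maps open chromatin by where Tn5 inserts adapters. Each group was 1 library of 1 replicate of 1 line, so differences could not be set against replicates and no p-values are given. After 1 tag was kept per position, 16598348 tags remained in DMSO and 18265284 in MAK683. Height is the number of tags at the summit of a peak scaled to 1000000 of these tags (RPM), so that 1 tag is worth 0.0602 RPM in DMSO and 0.0547 RPM in MAK683. The shallowest listed peaks held 6 tags over 200 bp. A site without a peak may therefore still be open below that limit. SMARCB1 had no peak at its promoter or in its gene body in either library.

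Guanylate-binding proteins are large GTPases related to dynamins. Interferon gamma induces them strongly through transcription factors that bind GAS and ISRE elements. GBP1 coats the lipopolysaccharide of bacteria in the cytosol, and GBP2, GBP3 and GBP4 join the coat, on which caspase-4 is activated. GBP5 is known for its part in NLRP3 inflammasome assembly and, with GBP2, for inhibiting the protease furin. GBP6 and GBP7 are less studied. Resting cells mostly express the family at a low level.

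Short matches to the GAS or ISRE element were found in the DNA of some of these promoters. RefSeq promoters (build GRCh38.p14, 250 bases before to 50 after the start) were at hand for GBP1, GBP3, GBP4, GBP6 and GBP7. Each matched hg19 exactly, and its start was the TSS used here. GBP2 and GBP5 had no entry. The letters searched on both strands were GAAANNGAA for the ISRE core and TTCNNNGAA for GAS. An element with other letters is missed by this search, so a promoter without a match may still hold one. The ISRE core was found in 3 of 5 promoters, against 8.11% of all 35116 RefSeq promoters, and GAS in 1 of 5, against 7.66%. These 30-base stretches hold each match, in the direction of the gene with the matching letters in capitals. They are at chr1:89530998-89531027 and chr1:89530842-89530871 for GBP1, chr1:89488536-89488565 for GBP3 and chr1:89664609-89664638 for GBP4 (hg19, minus strand).
GBP1, -136 to -107: acgaagtactTTCAGTTTCatattactcta
GBP1, 20 to 49: tgctcgtgaactaaggaGAAAAAGAAcagg
GBP3, -16 to 13: cTTCCTTGAAagaagtactTTCAGTTTCat
GBP4, -13 to 16: tgcatgtcctTTCAATTTCggttctcacag
Positions count from 0 at the TSS. In GBP3 the capitals mark GAS and then the ISRE core, and in the others the ISRE core. GBP1 and GBP3 shared a run of 19 identical bases that holds the ISRE core. The core lay upstream of the TSS in GBP1 and just after it in GBP3, at 3 to 11. GBP1 and GBP7 shared a run of 13 bases, which overlaps the end of that run in GBP1. The likeness of GBP1 and GBP3 went beyond their run of 19 bases. Upstream of it, GBP1 has ctttaaaccctcccactggca where GBP3 has ctttaaaccctcctactagca. Nearer to it, GBP1 has ccatttatggtagtggagtca where GBP3 has gcatttatggttactgagtca. Pairs of the 5 promoters had 46.7 to 52.4% identity over their alignment. GBP1 and GBP3 had 51.7%, so these values do not set this pair apart. No value for unrelated promoters is given, so they do not show which pairs are related. The 5 promoters were poor in G and C, with 32.0 to 43.3% against a median of 58.7% over all promoters, and held 0 to 3 CpG dinucleotides against a median of 14. The motif shares over all promoters thus come from DNA of another base composition, and an excess of matches was not tested.

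None of the 7 genes had a promoter peak in DMSO, whereas 4 of 7 had one in MAK683. GBP1, GBP3, GBP4 and GBP6 had a peak in MAK683 only, and GBP2, GBP5 and GBP7 had none in either library. Over all protein-coding genes, 72.7% had a promoter peak in DMSO and 78.7% in MAK683. A promoter peak in MAK683 only was found for 7.87% of protein-coding genes. With 1 library per group, these shares are descriptions.

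**Figure D1:**
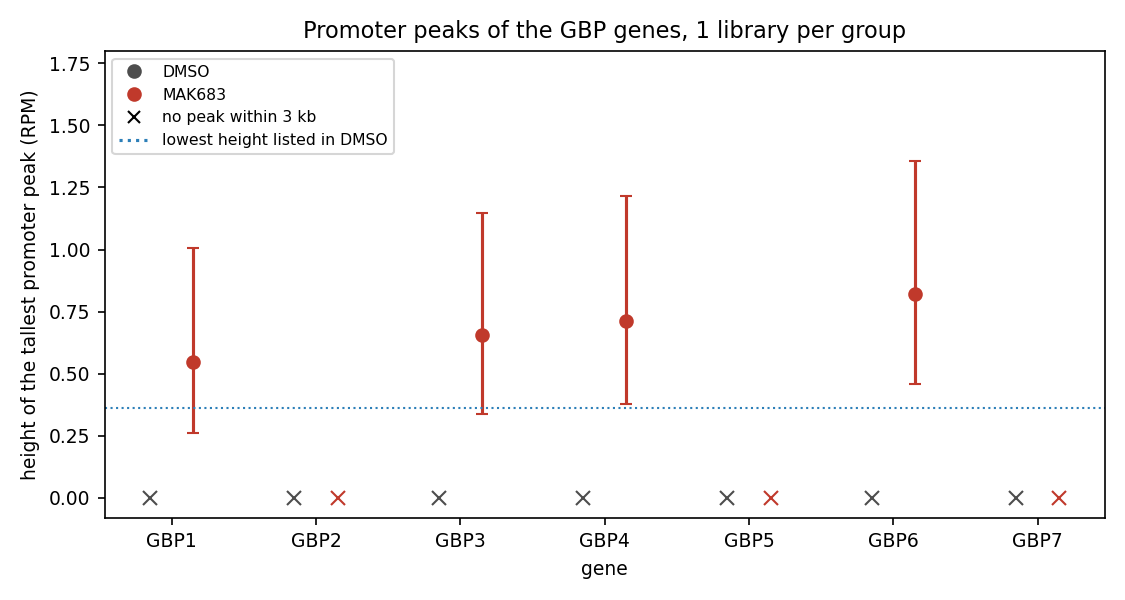
Height of the tallest promoter peak (RPM) of each GBP gene in the DMSO library (grey) and the MAK683 library (red), with 95% exact binomial intervals for counting error. Crosses mark genes with no peak within 3 kb, and the dotted line is the lowest height listed in DMSO, 0.361 RPM. GBP1, GBP3, GBP4 and GBP6 stand between 0.547 and 0.821 RPM in MAK683, and no gene has a DMSO peak.

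GBP1 (ENSG00000117228, chr1:89517565-89531043, minus strand), which starts the coat on bacteria, had its nearest DMSO peak 66.7 kb from the TSS. In MAK683 a peak of 1276 bp spanned the TSS, at chr1:89529767-89531042, with 10 tags and 0.547 RPM (95% Clopper-Pearson interval 0.263 to 1.01). Intervals cover counting error only. Both ISRE core matches of the promoter lay inside this peak. Its summit was in an intron, 543 bp into the gene. This was the broadest peak of the cluster but not a tall one. Against the lowest height listed in DMSO, the log2 ratio was 0.60, and the counting error of the 10 tags gives an interval from -0.46 to 1.48, which includes 0. The GBP1 body held 2 more MAK683 peaks with summits in exons, of 10 tags (chr1:89520908-89521401) and 11 tags (chr1:89522557-89522767). Upstream of the gene were another 2, of 11 tags (chr1:89536135-89536437) and 12 tags (chr1:89537030-89538046). None of these overlapped a DMSO peak.

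Among the genes whose proteins join the coat, GBP3 and GBP4 had promoter peaks in MAK683 and GBP2 had not. GBP3 (ENSG00000117226, chr1:89472362-89488577, minus strand) had 12 tags, 0.657 RPM (0.339 to 1.15), at chr1:89487623-89488320. The near edge of that peak was 229 bp from the TSS, its summit was in an intron, and it stopped 216 bp short of the stretch with the ISRE core and GAS. Another GBP3 peak of 8 tags lay over an exon at chr1:89485922-89486407. GBP4 (ENSG00000162654, chr1:89646827-89664625, minus strand) had 13 tags, 0.712 RPM (0.379 to 1.22), at chr1:89663992-89664574. It ended 51 bp inside the gene, with its summit in an intron. A peak of 7 tags, the lowest of the cluster, followed upstream at chr1:89664800-89664999, so the 30-base stretch over the GBP4 TSS lay between both. The log2 ratio to the lowest DMSO height was 0.86 for GBP3 and 0.98 for GBP4.

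GBP2 (ENSG00000162645, chr1:89571815-89616139, minus strand) had its nearest peak 12.9 kb from the TSS in MAK683 and 128 kb away in DMSO. Its annotated body is long because a few transcripts start far upstream. It held 3 MAK683 peaks. The tallest of them, at chr1:89613128-89614120, had 16 tags and 0.876 RPM, the next to tallest peak of the cluster. That peak lay in introns of long transcripts of both GBP2 and GBP7, and within 3 kb of the start of a GBP2 transcript outside the GENCODE basic set. With the starts of all annotated transcripts, 6 of 7 genes had a promoter peak in MAK683, GBP2 with these 16 tags and GBP5 with 10. DMSO still had 0 of 7.

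GBP5 (ENSG00000154451, chr1:89721872-89738543, minus strand) just missed the window. Its nearest MAK683 peak had 13 tags at chr1:89742172-89742627, 3.63 kb upstream of the TSS. A smaller peak of 8 tags stood beside it at chr1:89742753-89743030. A window of 10 kb takes in GBP5 and gives 5 of 7 genes in MAK683. The body of GBP5 held 3 further MAK683 peaks of 9 to 10 tags more than 10 kb from the TSS, and no DMSO peak.

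GBP6 (ENSG00000183347, chr1:89829618-89853719) is the one gene of the cluster on the plus strand and had the tallest promoter peak, with 15 tags and 0.821 RPM (0.460 to 1.35) at chr1:89828257-89829377. Its summit lay between genes, at -811 bp from the TSS. A peak of 12 tags had its summit at -2196 bp, at chr1:89827228-89827819. The log2 ratio to the lowest DMSO height was 1.18. GBP7 (ENSG00000213512, chr1:89597425-89641692, minus strand) had its nearest peak 12.8 kb from the TSS in MAK683 and 178 kb away in DMSO. Neither motif was found in the promoters of GBP6 and GBP7.

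The order of the 4 promoter heights in MAK683 was GBP6, GBP4, GBP3 and GBP1, at 15, 13, 12 and 10 tags. Neighbours in that order did not differ beyond counting error, and the intervals of GBP6 and GBP1 overlapped as well. The lower bounds of GBP4 and GBP6 were above the lowest height listed in DMSO, 0.361 RPM, and those of GBP1 and GBP3 were below it. That height is the lowest listed anywhere in DMSO, not a value measured at these 4 promoters, so it gives no DMSO value to compare with. All 4 were below the median promoter height of protein-coding genes with a peak, which was 1.93 RPM in DMSO and 1.31 RPM in MAK683. Peaks of this size at a promoter without a DMSO peak were common. Among 1586 other genes with a promoter peak in MAK683 only, 311 were at least as tall as GBP6 and 1044 at least as tall as GBP1. The same tags in both libraries were found at 223 other genes for GBP1, including AIM2, at 153 for GBP3, including CASP4, at 91 for GBP4 and at 61 for GBP6.

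**Figure D2:**
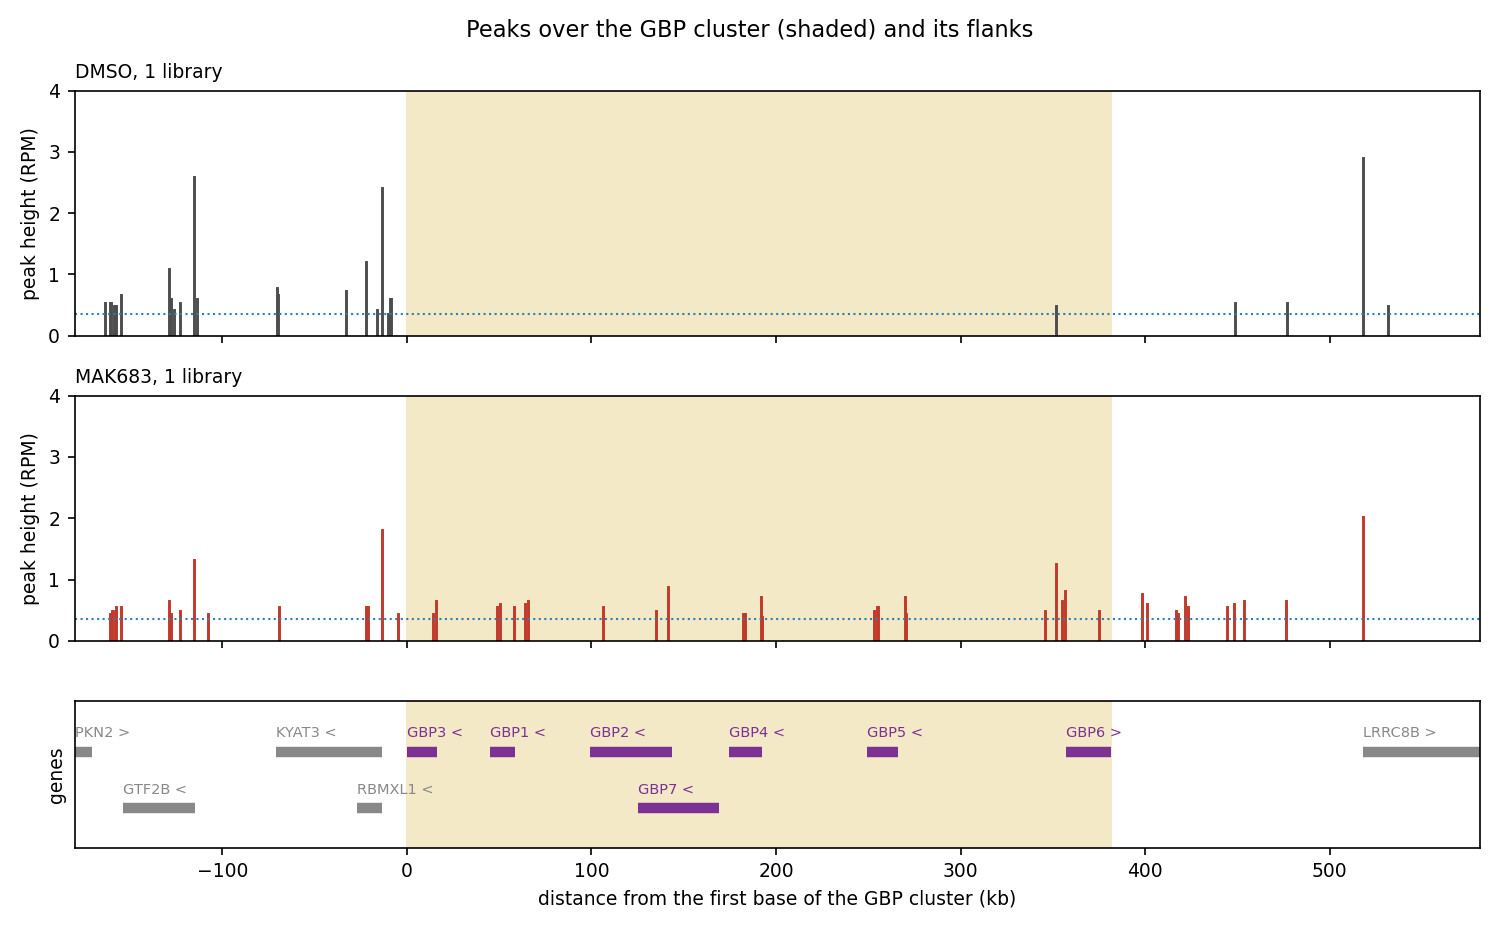
Every peak by its summit position (kb from the start of the cluster, shaded) and height (RPM) in DMSO (top) and MAK683 (middle), over the protein-coding genes (bottom, GBP genes in purple, arrowheads giving the strand). The dotted line is the lowest height listed in DMSO, 0.361 RPM. The shaded interval has 1 DMSO peak and 24 MAK683 peaks, while the tall peaks of both libraries stand at the genes on either side.

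Across the whole interval, DMSO had 1 peak (95% exact Poisson interval 0.0253 to 5.57) covering 302 bp, or 0.0792% of the bases. MAK683 had 24 peaks (15.4 to 35.7) covering 12313 bp, or 3.23%. The ratio of the numbers was 24 (3.91 to 987), where it was 1.41 over all chromosomes and 1.32 on chromosome 1. Here and below, the intervals of peak numbers and their ratios treat peaks as independent counts. Neighbouring peaks of 1 library are not independent, so these intervals do not measure the certainty of a treatment effect. Of the 24 MAK683 peaks, 7, or 29.2% (12.6 to 51.1), were within 3 kb of a TSS, while these windows made up 42007 of the 381358 bases. Most peaks lay farther away, and 15 had their summit in the body of a GBP gene. These bodies fill much of the interval, those of GBP2 and GBP7 alone running from 99.5 to 169 kb. By annotation 7 summits were in exons, 9 in introns and 8 between genes, while exons made up 12.8% of the interval. The same shares over all MAK683 peaks are not given here, so these counts describe the cluster and mark no trait of it.

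The one site with a peak in both libraries lay between GBP5 and GBP6, about 5.57 kb upstream of the GBP6 TSS. In DMSO it spanned chr1:89823890-89824191 with 8 tags and 0.482 RPM (0.208 to 0.950). In MAK683 it spanned chr1:89823676-89824607 with 23 tags and 1.26 RPM (0.798 to 1.89). It was the tallest peak of the cluster in MAK683, and the log2 ratio to DMSO was 1.39 (exact conditional interval 0.17 to 2.76). The other 23 of 24 MAK683 peaks, 95.8% (78.9 to 99.9), had no DMSO peak beneath them. Over all MAK683 peaks that share was 56.8%. These 23 peaks had a median of 10 tags, and all 91532 MAK683 peaks without a DMSO peak had a median of 9. Of the 23 peaks, 14, or 60.9%, held 10 tags or more, against 41.9% of all MAK683 peaks without a DMSO peak.

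**Figure D3:**
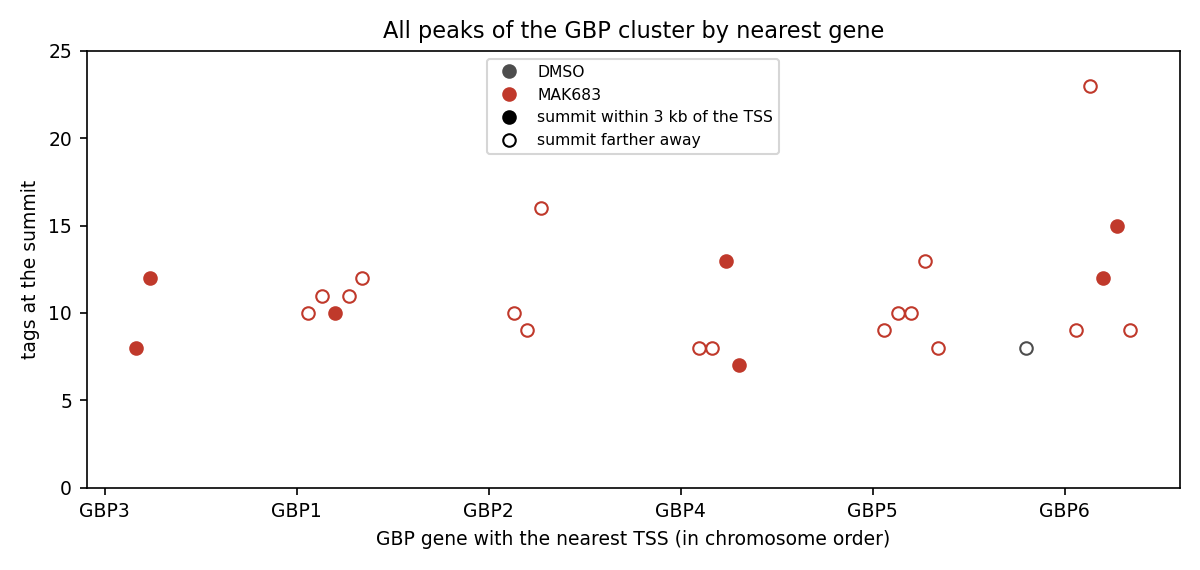
Tags at the summit of every peak of the cluster, placed under the GBP gene with the nearest TSS in chromosome order and, within a gene, from left to right along the chromosome. Filled points have their summit within 3 kb of the TSS. The DMSO point at 8 tags and the MAK683 point at 23 tags near GBP6 are the shared site, and all other points are MAK683 peaks of 7 to 16 tags.

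The reference DNA under the promoter peaks of GBP1, GBP3 and GBP4 and the shared site is given here as the 200 bases around each MAK683 summit, on the plus strand, because these are the sequences these peaks rest on. Capitals mark ISRE core or GAS matches. The stretches are chr1:89530248-89530447 for GBP1, chr1:89488115-89488314 for GBP3, chr1:89664264-89664463 for GBP4 and chr1:89823947-89824146 for the shared site (hg19).
GBP1 summit: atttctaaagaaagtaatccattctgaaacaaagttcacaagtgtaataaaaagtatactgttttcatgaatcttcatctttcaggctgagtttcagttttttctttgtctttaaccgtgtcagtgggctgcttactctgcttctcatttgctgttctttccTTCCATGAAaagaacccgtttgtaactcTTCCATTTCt
GBP3 summit: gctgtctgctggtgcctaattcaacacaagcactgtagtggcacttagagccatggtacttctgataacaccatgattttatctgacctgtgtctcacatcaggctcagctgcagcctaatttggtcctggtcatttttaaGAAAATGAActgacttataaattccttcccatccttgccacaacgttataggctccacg
GBP4 summit: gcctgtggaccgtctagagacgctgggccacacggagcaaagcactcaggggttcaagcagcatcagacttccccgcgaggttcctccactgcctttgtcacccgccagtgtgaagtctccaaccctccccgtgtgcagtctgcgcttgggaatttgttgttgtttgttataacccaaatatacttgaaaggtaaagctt
Shared site summit: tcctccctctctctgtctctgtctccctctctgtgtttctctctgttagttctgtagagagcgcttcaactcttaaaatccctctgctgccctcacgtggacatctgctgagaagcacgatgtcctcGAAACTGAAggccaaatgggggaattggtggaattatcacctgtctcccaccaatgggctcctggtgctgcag
The GBP1 stretch held GAS and, at its end, an ISRE core, the GBP3 stretch and the shared site held an ISRE core, and the GBP4 stretch held neither. These were the 3 of 24 MAK683 summits of the cluster with an ISRE core, against 5.36% of all MAK683 summits. GAS was in 1 of 24, against 5.54%, and an excess of either motif was not tested. Median GC content was 46.8% in the cluster and 51.0% over all summits. Paralogs of this kind can share reads, so 120-base pieces of the peaks were placed on the genome. Of 484 pieces 98.6% had a unique place, and 23 of 24 peaks were unique throughout. The exception was the 10-tag exon peak of GBP1 at chr1:89520908-89521401, with 63.2%, whose tags are uncertain.

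The genes that flank the cluster had open promoters in both libraries. PKN2, GTF2B, KYAT3 and RBMXL1 on one side and LRRC8B, LRRC8C and LRRC8D on the other had a promoter peak in each, and all 7, with 6 separate peaks, were lower in MAK683. A lower value in MAK683 was also the rule over the genome, at 78.4% of the 16247 coding genes that had a promoter peak. The log2 ratios (MAK683 over DMSO) of the 7 had a median of -0.67, against -0.46 over the 14288 protein-coding genes with a peak in both libraries. LRRC8C, which encodes a subunit of the volume-regulated anion channel, went from 3.61 to 1.53 RPM (log2 ratio -1.24, interval -1.88 to -0.59). KYAT3 and RBMXL1 share 1 peak, of 2.41 RPM in DMSO and 1.81 RPM in MAK683 (-0.42, -1.08 to 0.25). In MAK683 every one of these promoters was taller than the promoter of GBP6, the lowest being GTF2B at 1.31 RPM.

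Peak numbers over these genes were lower in MAK683 as well. From the start of LRRC8B to the end of LRRC8D there were 72 peaks in DMSO and 42 in MAK683, a ratio of 0.583 (0.389 to 0.865). From the start of PKN2 to the end of RBMXL1 there were 29 and 17, a ratio of 0.586 (0.302 to 1.10). Between RBMXL1 and LRRC8B, a stretch that holds the GBP genes and little else, there were 8 and 37, a ratio of 4.63 (2.12 to 11.5). The interval on the PKN2 side includes equal numbers. In flanks cut at the length of the cluster, there were 34 and 19 peaks before it (0.559, 0.301 to 1.01) and 25 and 25 after it (1, 0.551 to 1.81). The MAK683 library as a whole had more and lower peaks, with a median of 0.547 RPM against 0.663 RPM in DMSO. The part of this library-wide difference in the GBP result was not tested.

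**Figure D4:**
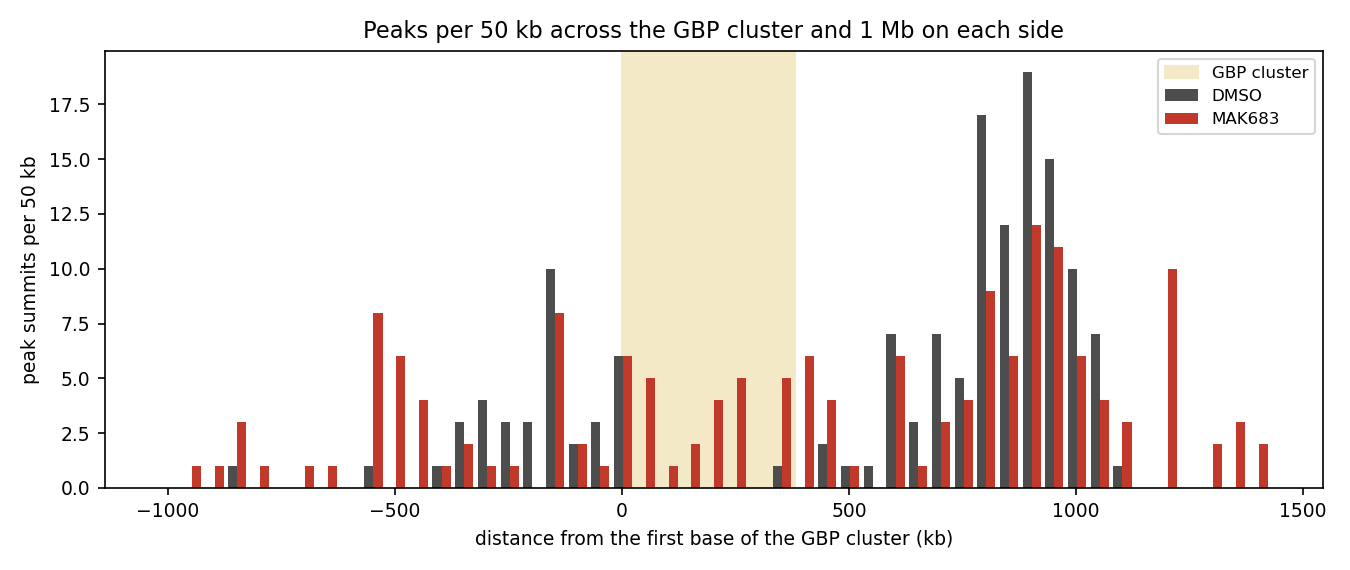
Number of peak summits per 50 kb in DMSO (grey) and MAK683 (red), by distance from the start of the cluster (shaded) over 1 Mb on each side. Bars wholly within the shading are almost all MAK683, and the cluster has 24 MAK683 peaks and 1 DMSO peak. The bar at its left edge also takes in summits outside the cluster and has 6 of each library. Over the LRRC8 genes to the right the DMSO bars are taller (72 peaks against 42).

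Stretches with at least 10 times as many MAK683 as DMSO peaks were not rare, but fewer reached the cluster's own numbers. When the genome was cut into 8105 windows of the length of the cluster, 4863 had at least 10 MAK683 peaks, and in 15.7% of these the MAK683 number was at least 10 times the DMSO number, as it was for the cluster. No window of the 2948 with at least 10 DMSO peaks had the reverse. Of 2885 windows with at most 1 DMSO peak, 462 had at least 10 MAK683 peaks and 116 had 24 or more.

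The genes that act before and beside GBPs had open promoters in both libraries. All 7 genes for interferon receptors and their kinases had a promoter peak in DMSO and in MAK683, as had 70.9% of all protein-coding genes. Their median log2 ratio was -0.58, against -0.46 over all genes with both peaks. The smallest difference was at JAK1 (1.81 to 1.59 RPM, -0.19) and the largest at TYK2 (2.35 to 1.09 RPM, -1.10, interval -1.88 to -0.32). Of the 6 transcription factors, 5 had peaks in both, with a median of -0.46. IRF1, with the lowest ratio of this list, had 2.77 RPM in DMSO and 1.70 RPM in MAK683 (-0.71). IRF9 had 22 tags in each library. IRF8, a factor of blood cells, had no peak in either.

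Genes at the ends of the pathway were mixed. Of 6 other dynamin-related or interferon-inducible GTPases, the interferon-induced MX1 and MX2 had no peak in either library. The other 4, IRGM, ATL1, ATL2 and ATL3, had peaks in both. ATL1, which shapes the endoplasmic reticulum, was the only one of the 4 with a higher value in MAK683 (1.08 and 1.20 RPM, 0.15, interval -0.75 to 1.05). Of 5 inflammasome genes, 3 had a promoter peak in MAK683 only, as had 7.87% of all protein-coding genes. They were NLRP3, a sensor, with 22 tags, CASP4, the protease activated on the GBP coat, with 12 tags, and AIM2, a DNA sensor, with 10 tags. GSDMD, the pore-forming target of that protease, had 9 tags in DMSO and no peak in MAK683, and CASP1 had no peak. Of 10 interferon gamma targets, CIITA, the regulator of MHC class II genes, had 23 tags and IDO1, a tryptophan-degrading enzyme, 8 tags in MAK683 only. PSMB8 had 11 tags in DMSO only. TAP1 and PSMB9, which share 1 peak, and WARS1 had peaks in both, and the chemokine genes CXCL9, CXCL10 and CXCL11 and APOL3 had none. Over the 34 genes of these lists, 5 had a promoter peak in MAK683 only, 2 in DMSO only, 19 in both and 8 in neither. Over all protein-coding genes these shares were 7.87%, 1.84%, 70.9% and 19.4%.

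**Figure D5:**
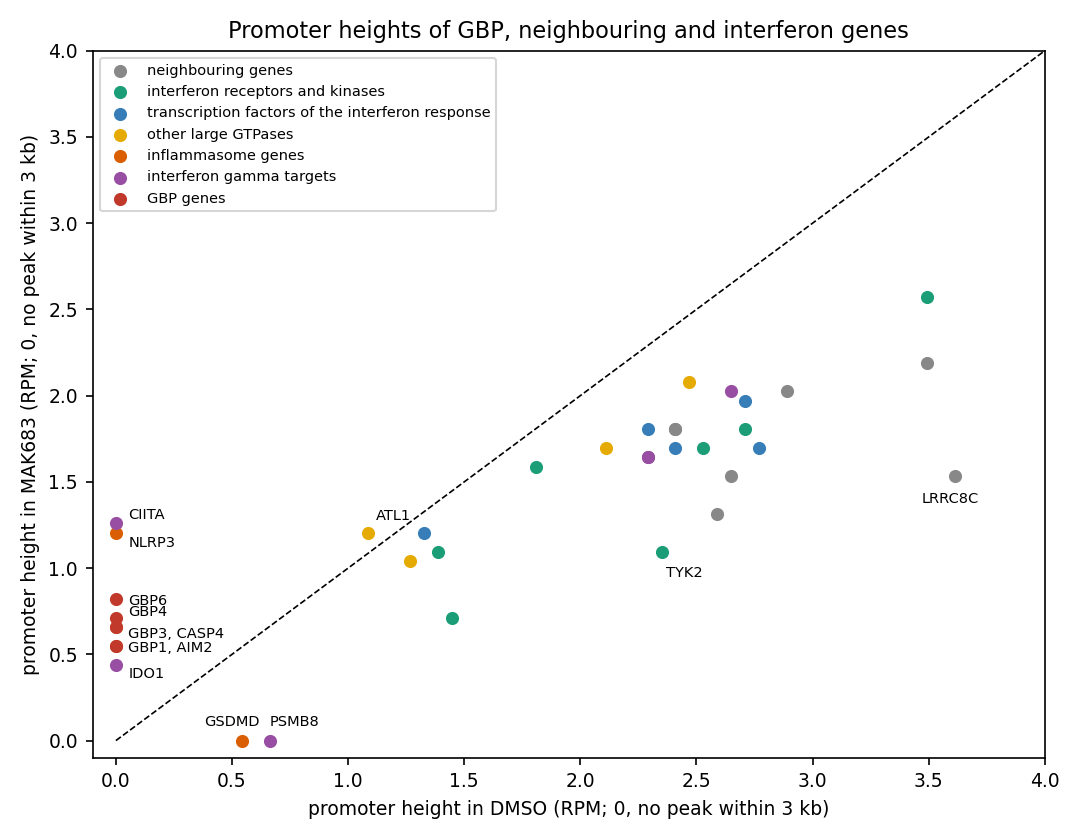
Height of the tallest promoter peak (RPM) in DMSO (x axis) and MAK683 (y axis) for the GBP genes, the flanking genes and the interferon gene lists. Points at 0 had no peak within 3 kb in that library, genes with none in either are not drawn, and the dashed line marks equal heights. The GBP genes sit on the y axis beside CASP4, AIM2, NLRP3, CIITA and IDO1, while most other genes lie below the line.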

How the data were processed

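ATAC-seq was performed on 2 libraries of G401 cells, 1 with DMSO and 1 with MAK683, grouped by the treatment label. Per the file headers, the authors called peaks in each library with MACS2 2.1.1.20160309 on BAM files read as single ends, with a shift of -100 bp, an extension of 200 bp, 1 tag per position, no control, no local background and a q-value threshold of 0.05. The submitters' processing notes name Bowtie2, build hg19 and MACS2 2.1.0 and 2.2.7.1. The deposited signal is the pileup, the tags over the summit. The deposited fold enrichment (a ratio to the background) and −log10 q-value were used in alternatives only. Calls depend on depth (16598348 and 18265284 tags), and a peak has at least 6 tags.

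From these tables, RPM was computed as pileup per 1000000 tags kept. A gene's promoter height was that of its tallest peak within 3 kb of its TSS (GENCODE 44, lifted to hg19, Ensembl canonical transcript). Peaks overlapping by 1 bp were shared. Where a library had no peak, 0.361 RPM stood in for log2 ratios, so these depend on the calling limit. Intervals were exact (95%), with a normal approximation on the log2 scale for the ratio of heights of genes with both peaks, from scipy 1.17.1 and numpy 2.4.6. Sequences were read with pysam 0.24.0, aligned with biopython 1.88 and placed with minimap2 2.31 (120-base pieces every 20 bases, mapping quality of 10 or more). Functions were tested on simulated data.

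The text names all 7 GBP genes, the 10 tallest peaks of the interval and those within 3 kb of a TSS, the flanking genes, and from the interferon lists the extremes and genes with a peak in 1 library. The members and lists were chosen with earlier results of these data known. Alternatives were stricter q-values, other windows, TSS sets, overlaps and intervals, no depth scaling and fold enrichment. A cut to about equal peak numbers, a minimum of 1 RPM and the starts of all transcripts were chosen after seeing the data. A gene of the lists and a sequence are not reported here.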

Additional observations from a re-analysis of the deposited data

How the results depend on the processing

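No paired analysis was possible because each group has 1 library and no test was made. Of 65 values under alternatives, 42 stayed near the reported one and 23 moved further. Near means within 1.5 times the reported count or within the 95% interval of the reported share or ratio. Direction was checked for the log2 ratios only, and 0 changed. Most of these ratios set a called MAK683 peak against the stand-in height for a missing DMSO peak, so they could hardly change direction. DMSO had 0 of 7 genes with a promoter peak under every alternative except the 10 kb window, which gave 1 (GBP6, through the shared site). Only the wider window and the other TSS sets could raise that count. The thresholds, the narrower window and the cut of MAK683 peaks could not, and these fixed values are among the 42. The 4 genes of MAK683 became 5 with the 10 kb window, 6 with the starts of all transcripts, 3 at a −log10 q of at least 5, and 0 at 10 or at a minimum of 1 RPM. The interval held 10 MAK683 peaks (6906 bp) and 0 DMSO peaks (0 bp) at a −log10 q of at least 5, 2 (1925 bp) and 0 at 10, and 1 (932 bp) and 0 at 1 RPM. With 100 kb added on both sides it held 39 MAK683 peaks (21486 bp) and 12 DMSO peaks (7031 bp). The share of MAK683 peaks over a DMSO peak, 4.17%, became 15.4% with 100 kb added on both sides and 0% when 50% of each peak had to overlap. It was 0% at all 3 thresholds too, where no DMSO peak was left in the interval. With MAK683 held to peaks of at least 9 tags, which left 117550, near the DMSO number, 19 of its peaks in the interval stayed. The 4 promoter peaks, of 10 to 15 tags, could not be lost at this cut. The log2 ratios of the 4 promoters ranged from 0.57 to 1.39 over the windows of 1 and 10 kb, the starts of basic transcripts, no depth scaling and fold enrichment. The 1.39 is the shared site, which the 10 kb window takes in for GBP6. Depth limits these values: the peaks held 7 to 23 tags, and the intervals of the lower ones reach the 6 tags of the shallowest listed peaks.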

Other observations

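Past GBP6, the pseudogene GBP1P1 lies between the cluster and LRRC8B. Its locus, chr1:89873238-89891802 (hg19), had 0 peaks in DMSO and 3 in MAK683 (95% exact Poisson interval 0.619 to 8.77), of 8 to 11 tags, which covered 1580 bp. From the end of GBP6 to the start of LRRC8B there were 3 peaks in DMSO and 11 in MAK683, a ratio of 3.67 (0.969 to 20.5), the tallest in each library being the LRRC8B promoter.

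Both parts of the cluster had MAK683 peaks. The stretch from GBP3 to GBP7 had 0 in DMSO and 10 in MAK683, and the stretch from GBP4 to GBP6 had 1 and 14, which are 59.1 and 66.0 MAK683 peaks per Mb against 67.5 on chromosome 1 as a whole. Over the whole cluster there were 62.9 per Mb in MAK683, and in DMSO 2.62 per Mb against 51.1 on the chromosome.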
